A study of Mus musculus with 31 samples.

Results

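The G1 cyclins, the CDK inhibitors that act on them, Rb1 and E2f1 were followed in irradiated RM-9 and MC-38 tumors. The set was chosen by gene name and holds 10 genes of the 46072 in each deposited table. It consists of the D-type cyclins Ccnd1, Ccnd2 and Ccnd3, the E-type cyclins Ccne1 and Ccne2, the inhibitors Cdkn2a, Cdkn2b and Cdkn1b, the pocket protein gene Rb1 and the transcription factor gene E2f1. All 10 were above 0 in all 31 libraries and all were tested. On GRCm38 they lie at chr7:144929931-144939869 (Ccnd1), chr6:127125162-127152193 (Ccnd2), chr17:47505051-47599691 (Ccnd3), chr7:38097984-38107534 (Ccne1), chr4:11191351-11204779 (Ccne2), chr4:89274471-89294653 (Cdkn2a), chr4:89306289-89311032 (Cdkn2b), chr6:134920401-134925513 (Cdkn1b), chr14:73183673-73325822 (Rb1) and chr2:154559407-154569892 (E2f1). Ccnd1, Ccnd2, Ccnd3, Ccne2 and Rb1 overlap genes on the other strand, and whether reads were counted by strand is not given in the sources used here.

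RM-9 (RM9 in the labels) is a mouse prostate cancer cell line and MC-38 (MC38 in the labels) a mouse colon cancer cell line. Cells of either line were injected under the skin of the right hind leg of wild-type male C57BL/6J mice bought at 6 to 7 weeks of age, and RT was 1 local dose of 15 Gy. The RM-9 groups were Control (no treatment, 4 mice), RT 3 h (4), RT 12 h (4) and RT 24 h (3), and the MC-38 groups were Control (no treatment, 4 mice), RT 3 h (4), RT 12 h (4) and RT 24 h (4). Each library came from 1 mouse and each model from 1 cell line, and the whole tumor was sequenced, so that fewer cells of a type and less RNA per cell cannot be told apart. The Control mice carry the 3 h time in their labels and served all 3 RT groups of their model, so RT and elapsed time cannot be told apart at 12 h and 24 h. The question for the series was how the tumor responds in the first day after a single high dose, and for these genes it was how the machinery of G1 stood before RT and at each time after it.

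Cells leave G1 when D-type cyclins, bound to CDK4 or CDK6, and E-type cyclins, bound to CDK2, phosphorylate the retinoblastoma protein encoded by Rb1. Phosphorylation releases E2F factors such as E2F1, which switch on the genes of DNA replication, and Ccne1, Ccne2 and E2f1 are themselves known E2F target genes. The INK4 proteins p16 (Cdkn2a) and p15 (Cdkn2b) block CDK4 and CDK6, while p27 (Cdkn1b) blocks cyclin E with CDK2. The Cdkn2a locus also encodes p19ARF from another start site, a protein that restrains MDM2 and so protects p53. Loss of Cdkn2a and Cdkn2b is common in tumors, and irradiated cells with working p53 arrest in G1 through p21 (Cdkn1a).

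Values are TPM, the share of a library's transcripts that belongs to a gene, a level per transcript length whose sum is the same in each library. Transcripts of the mitochondrial genome took 47.3% to 57.2% of a library's TPM in RM-9, while in MC-38 they took 22.5% to 40.6%. A library with more of them has less TPM left for every other gene. Each comparison is therefore given on TPM as deposited and again after median-ratio scaling, which divides each library by its median ratio to the average library. On TPM as deposited the median gene of all tested stood at a log2 fold change of 0.06, -0.19 and -0.04 in RM-9 at 3, 12 and 24 h and at 0.19, 0.33 and 0.22 in MC-38. The median of the untreated MC-38 tumors against the untreated RM-9 tumors was 0.63. A gene was called when its Benjamini-Hochberg adjusted p in limma, fitted across all genes on log2(TPM + 0.5), was under 0.05. MC-38 Control mouse 1 stood apart from the other 3 Control mice: mitochondrial transcripts took 40.6% of its TPM, against 25.7% to 31.04%, and the 5 skeletal muscle markers summed to 9783 TPM, against 16.9 to 1591. The part of muscle in the results was not tested. Member calls on TPM as deposited that change without this mouse are given without it. Gene list counts are given without it where named, as an alternative chosen after the data were seen. Other counts may depend on this mouse too.

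The labels call both tumors adenocarcinoma. The 6 epithelial markers (Krt8, Krt18, Krt7, Krt19, Epcam and Cdh1) summed to 669 to 1526 TPM over the 15 RM-9 libraries. They were near 0 in all 16 MC-38 libraries, at 0.644 to 1.56 TPM for the 6 together.

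The Cdkn2a and Cdkn2b genes, which differed most between the models, have 3 annotated start sites, and their upstream sequence is shown to place them. The tables hold 1 value per gene, and that of Cdkn2a cannot be divided between the p19ARF and p16 transcripts. The stretches below are the last 100 bases before each start that lie in no annotated exon, from RefSeq on GRCm38.p6, all from the minus strand and written 5′ to 3′. Capitals mark an E2F-type motif (TTTCCCGC, TTTCGCGC, TTTGCCGC or TTTGGCGC on either strand) or a GC box (GGGCGG on either strand).
Cdkn2a, upstream start, chr4:89294654-89294753: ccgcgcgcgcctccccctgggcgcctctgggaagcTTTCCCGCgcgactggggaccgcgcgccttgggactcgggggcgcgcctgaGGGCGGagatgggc
Cdkn2a, downstream start, chr4:89282193-89282292: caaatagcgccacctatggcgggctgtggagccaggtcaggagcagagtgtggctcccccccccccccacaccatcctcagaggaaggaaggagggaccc
Cdkn2b, chr4:89311040-89311139: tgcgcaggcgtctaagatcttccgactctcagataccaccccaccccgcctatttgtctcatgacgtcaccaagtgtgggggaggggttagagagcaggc
The E2F-type motif stood 99 bases before RefSeq's upstream Cdkn2a start. Over the 250 bases before each start it occurred in 1.86% of 32851 mouse promoters, and a GC box occurred in 32.7%. Promoter sequence was at hand for 6 of the 10 genes (Ccnd3, Ccne1, Cdkn2a, Cdkn2b, Cdkn1b and E2f1), with 8 starts. The E2F-type motif was in 1 of these 8. For E2f1 all 250 bases lay in annotated exon, and sequence farther upstream was not read. In the printed sequence the E2F-type match and the GC box do not overlap.

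Before RT, the INK4 genes separated the models more than any other member. Cdkn2a was 179.8 TPM ± 13.9 (SD, n = 4) in RM-9 Control tumors and 6.76 TPM ± 2.02 (SD, n = 4) in MC-38 Control tumors. The RM-9 mice stood at 169, 193, 167 and 190.2 TPM and the MC-38 mice at 4.91, 8.19, 8.79 and 5.14 TPM. No MC-38 mouse came near the lowest RM-9 mouse. The log2 fold difference was -4.67 (SE 0.16, limma adjusted p = 3.51e-19), and -5.33 after median-ratio scaling (adjusted p = 3.07e-22). Cdkn2b, the neighbouring gene, had the same direction. Its levels were 48.1, 52.0, 49.0 and 46.9 TPM in RM-9 Control and 4.57, 4.48, 7.77 and 5.04 TPM in MC-38 Control, again without overlap. The log2 fold difference was -3.08 (SE 0.17, adjusted p = 1.07e-14), and -3.73 after scaling (adjusted p = 4.26e-17). The ratio of Cdkn2a to Cdkn2b, which no scaling can move, was 3.67 ± 0.29 (SD, n = 4) in RM-9 Control and 1.26 ± 0.38 (SD, n = 4) in MC-38 Control.

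Most genes around the INK4 genes had a higher mean in MC-38 Control, as had most genes tested. Of the genes within 1 Mb of Cdkn2a, 13 had a mean of at least 0.5 TPM in at least 1 model. Of the 11 besides Cdkn2a and Cdkn2b, 10 had a higher mean in MC-38 Control, and of the 9 tested 8 were called higher and 0 lower, beside 9943 of all 15358 genes called higher. After scaling 5 were called higher and 0 lower, beside 5231 of all genes, and Gm12602 flipped from 0.28 (adjusted p = 0.182) to -0.34 (adjusted p = 0.0511). Mtap, which encodes a methionine salvage enzyme and lies at chr4:89137370-89181090, was 32.3 TPM ± 3.24 (SD, n = 4) in RM-9 Control and 178 TPM ± 29.4 (SD, n = 4) in MC-38 Control. Its log2 fold difference was 2.43 (adjusted p = 2.01e-14), and 1.77 after scaling (adjusted p = 8.34e-14). Gm12606, a noncoding gene between Mtap and Cdkn2a, was also higher in MC-38 Control, by 2.11 on the log2 scale (adjusted p = 3.72e-09) and by 1.48 after scaling (adjusted p = 5.95e-07). Farther away, Klhl9 was higher in MC-38 Control by 0.67 (adjusted p = 3.35e-05) and stood at 0.02 after scaling (adjusted p = 0.86). Dmrta1, too low to be tested, had a mean of 0.542 TPM in RM-9 Control and 0.0116 TPM in MC-38 Control.

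**Figure D1:**
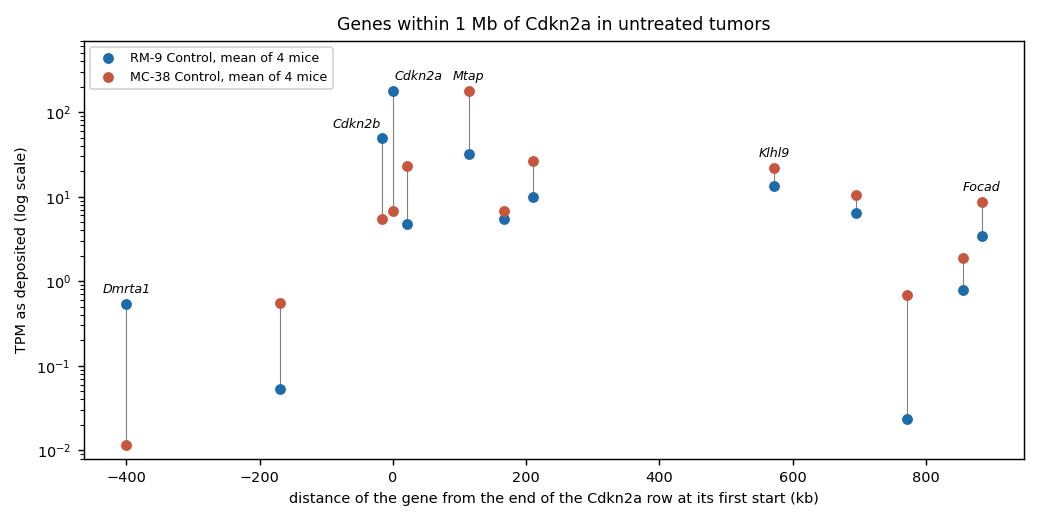
Level of each gene within 1 Mb of Cdkn2a in untreated tumors, against its distance from the upstream end of the Cdkn2a row in kb. Points are means of 4 Control mice in TPM on a log axis, and a grey line joins the models; the RM-9 point is the higher one for Cdkn2a, Cdkn2b and Dmrta1 and the lower one for the other 10 genes.

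Among the other inhibitors, p27 had the opposite direction. Cdkn1b was 5.97, 7.02, 6.10 and 6.61 TPM in RM-9 Control and 13.9, 26.4, 25.4 and 19.1 TPM in MC-38 Control, so that the lowest MC-38 mouse lay above the highest RM-9 mouse. The log2 fold difference was 1.61 (SE 0.16, adjusted p = 1.48e-09), and 0.97 after scaling (adjusted p = 1.61e-08). The other INK4 genes went with Cdkn1b: Cdkn2c (p18) was higher in MC-38 Control by 1.70 (adjusted p = 4.38e-10, and 1.08 after scaling with adjusted p = 1.35e-07). Cdkn2d (p19INK4D) was higher by 0.90 (adjusted p = 3.22e-07, and 0.25 after scaling with adjusted p = 0.0117). Cdkn1c (p57) was low in either model, at 1.77 TPM in RM-9 Control and 0.781 TPM in MC-38 Control (-0.91, adjusted p = 0.0144, and -1.33 after scaling with adjusted p = 0.00125). Cdkn1a (p21) was lower in MC-38 Control, at 58.2 TPM against 97.6 TPM in RM-9 Control (log2 fold difference -0.74, adjusted p = 5.39e-06, and -1.41 after scaling with adjusted p = 7.42e-10). Mdm2, the p53 antagonist that p19ARF restrains, was 644 TPM in RM-9 Control and 15.6 TPM in MC-38 Control, a log2 fold difference of -5.29 (adjusted p = 1.11e-19), and -5.96 after scaling (adjusted p = 1.31e-23). Mdm2 and Cdkn2a were thus both far higher in RM-9 Control. Each model is 1 cell line, and a relation between the genes was not tested.

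The E-type cyclins split between the models. Ccne2 was 7.45, 7.32, 7.82 and 10.4 TPM in RM-9 Control and 18.1, 29.1, 29.9 and 21.7 TPM in MC-38 Control, without overlap (log2 fold difference 1.51, SE 0.16, adjusted p = 2.48e-09, and 0.87 after scaling with adjusted p = 6.91e-07). Ccne1 leaned the other way, at 20.1, 18.6, 19.0 and 22.0 TPM in RM-9 Control and 10.99, 17.5, 19.7 and 13.3 TPM in MC-38 Control. Its log2 fold difference was -0.40 (adjusted p = 0.0494), and -1.05 after scaling (adjusted p = 9.13e-07). On TPM as deposited the Ccne1 call was lost without any 1 of 6 mice: RM-9 Control mouse 1 (adjusted p = 0.0799), 2 (0.056), 3 (0.061) or 4 (0.113), or MC-38 Control mouse 1 (0.207) or 4 (0.121). Within the 2 E-type cyclins, a share that no scaling can move, Ccne1 made up 70.9% ± 2.1 (SD, n = 4) in RM-9 Control and 38.3% ± 0.97 (SD, n = 4) in MC-38 Control. RM-9 tumors therefore held mostly Ccne1 and MC-38 tumors mostly Ccne2 transcripts.

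Of the D-type cyclins, Ccnd2 and Ccnd3 changed direction with the scaling, while Ccnd1 was lower in MC-38 Control on either scale. Ccnd1 was 204, 219, 234 and 241 TPM in RM-9 Control and 156, 220.3, 206 and 202 TPM in MC-38 Control, overlapping, with a log2 fold difference of -0.20 (adjusted p = 0.168) that became -0.87 after scaling (adjusted p = 1.41e-07). Ccnd2 was higher in MC-38 Control by 0.39 (adjusted p = 0.0403) and flipped to -0.28 after scaling (adjusted p = 0.0504). Ccnd3 was higher by 0.39 (adjusted p = 0.0122) and flipped to -0.28 after scaling (adjusted p = 0.0229). The Ccnd2 call was lost without RM-9 Control mouse 1 (adjusted p = 0.0844) or 2 (0.137) or MC-38 Control mouse 2 (0.163) or 3 (0.17), and the Ccnd3 call without RM-9 Control mouse 3 (0.0614) or MC-38 Control mouse 4 (0.0587). The makeup of the D-type cyclins, which scaling cannot move, was 71.7% ± 1.9 Ccnd1, 11.4% ± 1.4 Ccnd2 and 16.9% ± 2.5 Ccnd3 (SD, n = 4) in RM-9 Control. In MC-38 Control it was 62.7% ± 2.3 Ccnd1, 15.1% ± 2.3 Ccnd2 and 22.2% ± 2.2 Ccnd3 (SD, n = 4). Ccnd1 led in every library. These shares may not be true proportions of transcripts, since the 3 genes may not be on 1 scale. FPKM over coverage, relative to most genes, had a median of 1.03 for Ccnd1, 2.89 for Ccnd2 and 7.64 for Ccnd3.

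Rb1 and E2f1 were called higher in MC-38 Control on TPM as deposited and were not called after scaling. Rb1 was 2.67, 2.87, 3.02 and 3.26 TPM in RM-9 Control and 4.15, 5.79, 6.33 and 5.81 TPM in MC-38 Control, without overlap (log2 fold difference 0.79, adjusted p = 2.04e-05, and 0.19 after scaling with adjusted p = 0.111). E2f1 was 14.8, 15.97, 16.2 and 16.3 TPM in RM-9 Control and 18.8, 33.3, 33.4 and 28.6 TPM in MC-38 Control (0.80, adjusted p = 7.60e-06, and 0.14 after scaling with adjusted p = 0.105). The related pocket protein gene Rbl1 (p107) was higher in MC-38 Control on either scale, by 2.21 (adjusted p = 2.94e-10) and by 1.57 after scaling (adjusted p = 3.69e-10). The genes that E2F switches on were higher too: of the 20 S phase entry genes 19 were called higher in MC-38 Control and 0 lower, with a median of 1.46 against 0.63 over all genes, and after scaling 16 were higher and 0 lower, with a median of 0.79 against 0.03. In all, 9 of the 10 genes were called between the untreated models, 6 higher and 3 lower in MC-38, beside 75.4% of all genes tested. After scaling 7 were called, 2 higher and 5 lower, beside 65.6% of all genes. These shares are near the background, and any difference in how the 2 sets of libraries were made cannot be told apart from the tumor model.

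**Figure D2:**
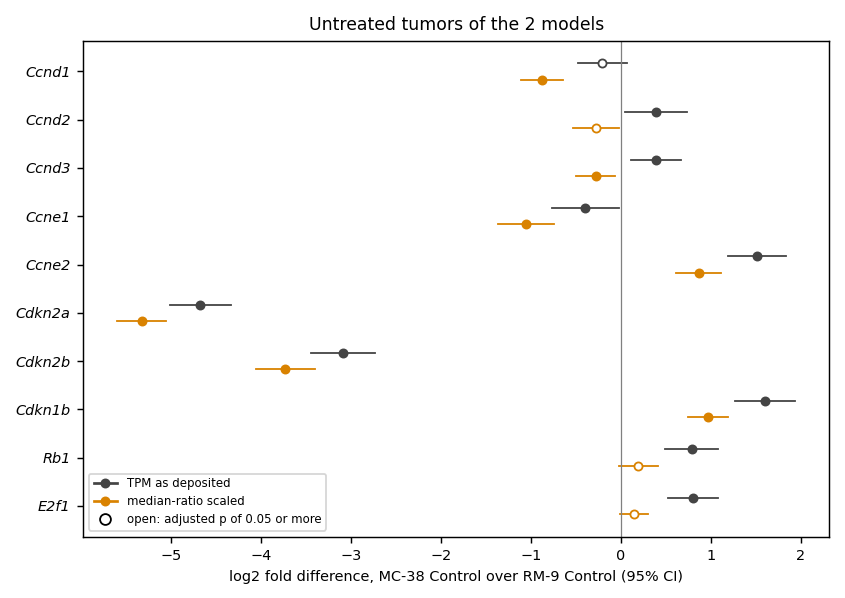
Log2 fold difference of each gene between MC-38 Control and RM-9 Control (4 mice each), with 95% confidence intervals, on TPM as deposited (grey) and after median-ratio scaling (orange); filled points have an adjusted p under 0.05. Cdkn2a and Cdkn2b lie far to the left and Ccne2 and Cdkn1b to the right of 0 on either scale, while Ccnd2 and Ccnd3 cross 0 with the scaling.

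Within RM-9 Control tumors the order of the levels was Ccnd1, Cdkn2a, Ccnd3, Cdkn2b, Ccnd2, Ccne1, E2f1, Ccne2, Cdkn1b and Rb1, from 224.5 TPM ± 16.3 (SD, n = 4) for Ccnd1 down to 2.96 TPM ± 0.25 (SD, n = 4) for Rb1. The ranges of the neighbours Ccnd3 and Cdkn2b overlapped, and those of no other neighbours. In MC-38 Control tumors the order was Ccnd1, Ccnd3, Ccnd2, E2f1, Ccne2, Cdkn1b, Ccne1, Cdkn2a, Rb1 and Cdkn2b. There the neighbours overlapped at every step except from Ccnd1 to Ccnd3 and from Ccne1 to Cdkn2a. Levels of different genes may not be on 1 scale in these tables: the ratio of FPKM to coverage, relative to that of most genes, had a median of 20.5 for Rb1, 7.64 for Ccnd3, 2.89 for Ccnd2 and 1.00 to 1.44 for the other 7. Over all libraries the ratio ran from 20.1 to 21.5 for Rb1 and from 1.20 to 1.66 for Cdkn1b, the widest span for its size. For Cdkn1b it was 1.41 to 1.62 in MC-38 Control and 1.36 to 1.66 at 24 h, which overlap, and its part in the Cdkn1b values was not tested.

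**Figure D3:**
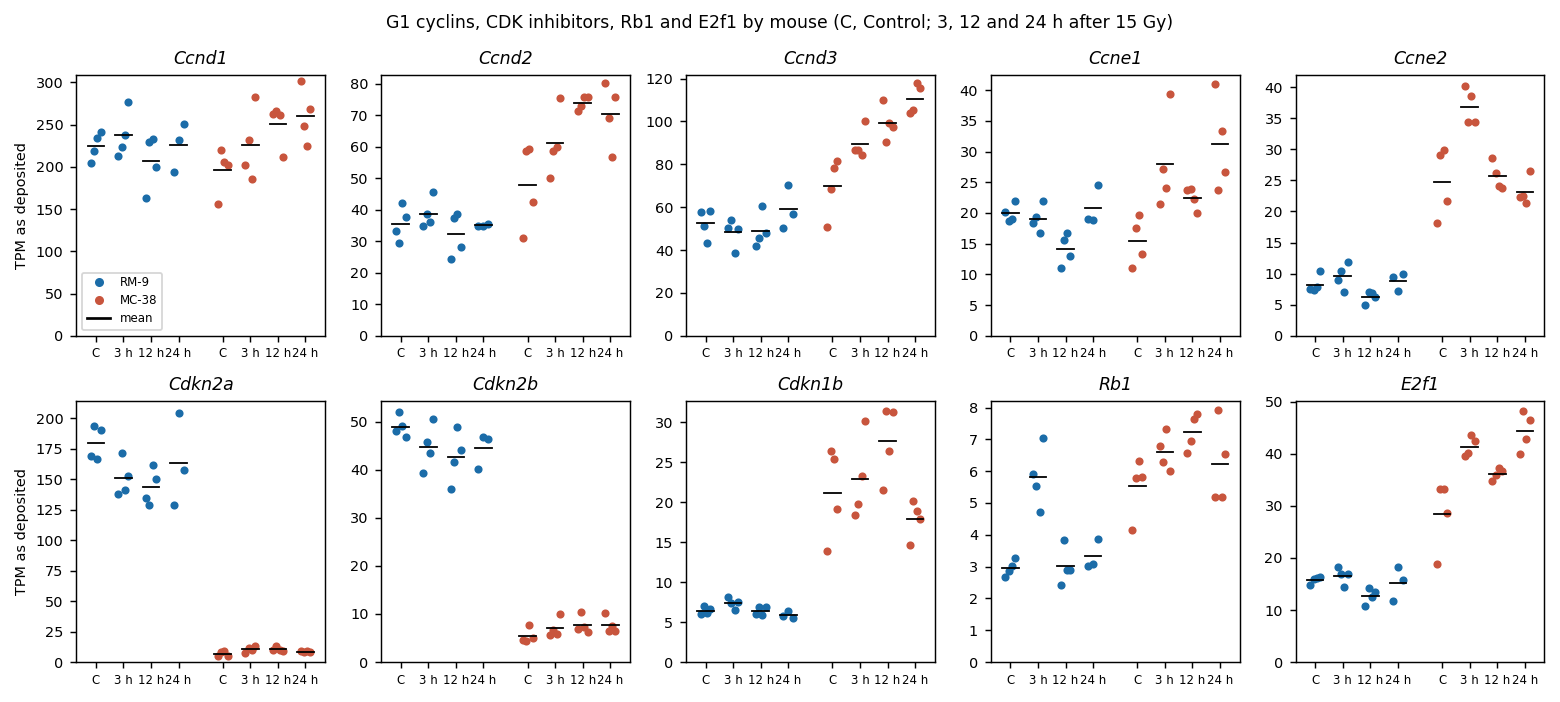
TPM as deposited of each of the 10 genes in every mouse (points) with the group mean (black line), RM-9 in blue and MC-38 in red; each vertical axis starts at 0. The 4 RM-9 mice at 3 h stand above the other RM-9 mice for Rb1, at 4.71 to 7.05 TPM, and Cdkn2a and Cdkn2b lie near the bottom in all 16 MC-38 mice.

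After RT, Rb1 rose in RM-9 tumors at 3 h. The retinoblastoma gene stood at 5.92, 5.55, 4.71 and 7.05 TPM at 3 h, each above the highest Control mouse at 3.26 TPM. At 12 h it was 2.41, 3.83, 2.89 and 2.90 TPM and at 24 h 3.02, 3.09 and 3.87 TPM, ranges that overlapped the Control mice. The log2 fold change at 3 h was 0.86 (SE 0.14, 95% CI 0.56 to 1.15, adjusted p = 0.0277), and 0.79 after scaling (SE 0.10, adjusted p = 0.00486). The direction held without each mouse in turn (0.77 to 0.95). The call was lost with mouse number as a replicate block (adjusted p = 0.0513), without a filter on low genes (0.0588) and when Control and RT 3 h alone were fitted (0.0864). It was also lost without Control mouse 1 (adjusted p = 0.106) or 2 (0.097) or RT 3 h mouse 1 (0.0645), 2 (0.0789) or 4 (0.083). The genes on the other strand of Rb1 are Lpar6 and Rcbtb2. Skeletal muscle markers summed to 217.6 to 2057 TPM in RM-9 Control and 2.95 to 810.0 TPM at 3 h, and macrophage markers to 300.0 to 468 TPM and 211 to 319 TPM, with 0 of the 6 macrophage markers called on either scale. Their part in the result was not tested. In MC-38 tumors Rb1 was 6.78, 6.28, 7.34 and 6.00 TPM at 3 h, overlapping Control (log2 fold change 0.25, 95% CI -0.08 to 0.57, adjusted p = 0.344; 0.05 after scaling). The Rb1 change was smaller in MC-38 than in RM-9 by 0.61 on the log2 scale, a difference that did not pass the test (-0.61, adjusted p = 0.369, and -0.75 after scaling with adjusted p = 0.0535).

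Rb1 was the 1 member of 10 called in RM-9 at 3 h, beside 0.228% of 14013 genes, and also the 1 member called after scaling, beside 2.73%. Of all genes, 28 were higher and 4 lower, and 225 higher and 158 lower after scaling. The pocket protein gene Rbl2 (p130) stood at a log2 fold change of 0.57 (adjusted p = 0.105) and 0.51 after scaling (adjusted p = 0.0222). Cdkn2a was 137, 171, 141 and 153 TPM at 3 h, with 3 of 4 mice below every Control mouse (log2 fold change -0.26, adjusted p = 0.237, and -0.33 after scaling with adjusted p = 0.09). The p53 targets moved in the same libraries: 6 of the 12 listed genes were higher and 0 lower (8 and 0 after scaling), with a list median of 0.81 against 0.06 over all genes. Cdkn1a rose from 97.6 to 190.1 TPM (log2 fold change 0.96, adjusted p = 0.0106, and 0.89 after scaling with adjusted p = 0.00497) and Mdm2 from 644 to 1517 TPM (1.27, adjusted p = 0.015, and 1.20 after scaling with adjusted p = 0.00486). The 20 S phase entry genes driven by E2F had no call on either scale and a median of -0.02. Of the 14 G2/M genes, 0 were called and 7 were lower after scaling, with Cdc20, an activator of mitotic exit, at -0.72 (adjusted p = 0.0723, and -0.78 after scaling with adjusted p = 0.00862).

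At 12 h in RM-9 tumors the members drifted lower with the rest of the genes. On TPM as deposited 9 of 10 had a log2 fold change below 0, with a median of -0.18 against -0.19 over all genes, and after scaling 6 of 10 were above 0. Ccne1 was the 1 member called, lower, beside 8.37% of all genes (10 higher and 1163 lower). After scaling 0 members were called, beside 0.136% (13 higher and 6 lower). With 0 members called by limma after scaling, 2 had an unadjusted p under 0.05, beside 2110 of 14013 genes. Ccne1 was 11.04, 15.7, 16.8 and 13 TPM, each below the lowest Control mouse at 18.6 TPM. The log2 fold change was -0.50 (SE 0.13, adjusted p = 0.0359), and -0.29 after scaling (adjusted p = 0.171), with all 4 mice still below Control. The call was also lost without a filter on low genes (adjusted p = 0.0636), when Control and RT 12 h alone were fitted (0.064), and without Control mouse 1 (0.0731), 2 (0.0691) or 4 (0.126) or RT 12 h mouse 1 (0.101) or 4 (0.0913). Ccne2 was 4.97, 7.11, 6.95 and 6.22 TPM, all below Control too (log2 fold change -0.36, adjusted p = 0.157, and -0.15 after scaling with adjusted p = 0.628). Cdkn2a was 135, 129, 162 and 150.0 TPM, all below Control (-0.32, adjusted p = 0.0991, and -0.10 after scaling with adjusted p = 0.697). E2f1 was 10.7, 14.3, 12.4 and 13.4 TPM, all below Control (-0.31, adjusted p = 0.108, and -0.10 after scaling with adjusted p = 0.631).

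The genes downstream of E2F were lower in the same tumors. Of the 20 S phase entry genes, 10 were called lower and 0 higher at 12 h in RM-9, with a median of -0.49 against -0.19 over all genes. After scaling 0 were called and all 20 stayed below 0, with a median of -0.28 against 0.01. Mcm2 and Mcm3, subunits of the replicative helicase, were at -0.70 and -0.77 (adjusted p = 0.0246 for each), and at -0.48 and -0.55 after scaling (adjusted p = 0.0542 for each). Of the 11 pocket protein and E2F genes 1 was lower (0 after scaling), E2f4 at -0.34 (adjusted p = 0.0308, and -0.12 after scaling with adjusted p = 0.275). Cdkn1a was higher on either scale, at 0.52 (adjusted p = 0.0303) and 0.74 after scaling (adjusted p = 0.0395). Markers of other cell types moved in these libraries. The 6 macrophage markers summed to 300.0 to 468 TPM in Control and 152 to 289 TPM at 12 h, with 4 of 6 called lower, and 0 after scaling. The T cell markers summed to 3.31 to 5.68 TPM and 0.934 to 3.20 TPM, with 2 of 3 tested called lower, and 0 after scaling. The epithelial markers summed to 1155 to 1395 TPM and 669 to 1137 TPM, with 1 of 5 tested called lower, and 0 after scaling. Their part in the result was not tested.

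At 24 h in RM-9 tumors no member was called on either scale, beside 0% of all genes on TPM as deposited and 0% after scaling. In limma 681 of 14013 genes had an unadjusted p under 0.05, and 945 after scaling, among them 0 members on either scale. The group held 3 mice. The 95% confidence intervals of the members' log2 fold changes on TPM as deposited lay within -0.45 to 0.49. Ccne1 was 19.0, 18.9 and 24.6 TPM and Ccne2 9.48, 7.13 and 9.93 TPM, which overlapped Control.

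In MC-38 tumors, E2f1 and the E-type cyclins stood above Control at 3 h. E2f1 was 39.5, 40.1, 43.6 and 42.4 TPM, each above the highest Control mouse at 33.4 TPM. The log2 fold change was 0.56 (SE 0.14, adjusted p = 0.102), and 0.35 after scaling (SE 0.06, adjusted p = 0.0282). Ccne1 was 21.5, 27.1, 24.0 and 39.4 TPM, each above the highest Control mouse at 19.7 TPM (log2 fold change 0.84, adjusted p = 0.097, and 0.63 after scaling with adjusted p = 0.125). Ccne2 was 40.3, 34.3, 38.6 and 34.4 TPM, each above the highest Control mouse at 29.9 TPM (0.60, adjusted p = 0.0889, and 0.38 after scaling with adjusted p = 0.107). On TPM as deposited 0 of 10 members were called by limma, beside 0.0637% of 15698 genes (8 higher and 2 lower). An unadjusted p under 0.05 was found for 5 members, beside 3130 of the 15698 genes. Dunnett's comparisons of TPM, run on each member alone, called 5. They were not adjusted across genes, and no share over all genes is at hand for them. After scaling 1 member was called, beside 0.669% (49 higher and 56 lower). When mitochondrial transcripts were left out of TPM 2 were called, both higher, beside 158 of 15671 genes (132 higher and 26 lower). Without Control mouse 3, 4 were called on TPM as deposited: Ccne1 (adjusted p = 0.041), Ccne2 (0.0321), Cdkn2a (0.0498) and E2f1 (0.0421). The share over all genes in that fit is not given here. CDK2, the partner of the E-type cyclins, went with them: Cdk2 was 35.2 TPM in Control and 53.3 TPM at 3 h (0.64, adjusted p = 0.132, and 0.43 after scaling with adjusted p = 0.0437). Without Control mouse 1, 0 of the 3 G1 kinases were called at 3 h on either scale, beside 0.0255% of all genes and 0.0828% after scaling.

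At 12 h in MC-38 tumors 3 members were called on TPM as deposited, all higher, beside 31.1% of all genes (4469 higher and 406 lower). After scaling 0 were called, beside 16.2% (995 higher and 1544 lower), and 2 had an unadjusted p under 0.05, beside 5236 of 15698 genes. The share of 3 in 10 is near the background. Ccnd2 was 71.5, 73.1, 75.8 and 75.6 TPM against 31.1, 58.5, 59.2 and 42.6 TPM in Control, without overlap (log2 fold change 0.67, SE 0.18, adjusted p = 0.0188, and 0.32 after scaling with adjusted p = 0.089). Ccnd3 was 109.8, 90.4, 99.4 and 97.7 TPM against 50.8, 68.5, 78.2 and 81.5 TPM (0.53, adjusted p = 0.0141, and 0.18 after scaling with adjusted p = 0.173). Cdkn2a was 10.0, 13.1, 9.76 and 8.80 TPM against 4.91 to 8.79 TPM, so that the lowest mouse stood barely above the highest Control mouse (0.62, adjusted p = 0.0294, and 0.29 after scaling with adjusted p = 0.198). All 3 calls were lost when Control and RT 12 h alone were fitted (adjusted p = 0.0541 for Ccnd2, 0.0548 for Ccnd3 and 0.0714 for Cdkn2a). The Cdkn2a call was also lost without Control mouse 1 (adjusted p = 0.0938) or 4 (0.0799) or RT 12 h mouse 2 (0.089), 3 (0.0514) or 4 (0.0506). Further members were called without 1 Control mouse: Ccnd1 (0.0459), Ccne1 (0.0445) and E2f1 (0.0347) without mouse 2, and Ccne1 (0.02), Cdkn2b (0.0273), Rb1 (0.04) and E2f1 (0.0228) without mouse 3. The shares over all genes in these fits are not given here. Cdk6, a kinase partner of the D-type cyclins, was called on either scale, at 0.78 (adjusted p = 0.0105) and 0.44 after scaling (adjusted p = 0.00932). Cdk4, the other partner, stood at 0.06 (adjusted p = 0.667) and was called lower after scaling, at -0.29 (adjusted p = 0.0198), a call lost without Control mouse 1. Markers of other cells moved in these libraries: 4 of 6 macrophage markers were lower (5 after scaling), with sums of 230.2 to 542 TPM against 625.3 to 999.6 TPM in Control. Of the T cell markers 3 of 5 were lower (5 after scaling), with sums of 7.35 to 14.4 TPM against 13.1 to 20.1 TPM. Without Control mouse 1, 1 T cell marker and 4 macrophage markers were lower on either scale. In that fit 11.7% of all genes were called, and 6.61% after scaling. Further, 1 fibroblast marker was higher on either scale, 1 B cell marker on TPM as deposited, and 1 neutrophil marker was lower after scaling. Without Control mouse 1 the fibroblast count was 1 on TPM as deposited and 0 after scaling. The B cell and neutrophil counts were then 0 on either scale. Their part in the result was not tested.

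By 24 h in MC-38 tumors, Ccnd3, Ccne1 and E2f1 were higher on either scale. Ccne1 was 41.0, 23.8, 33.3 and 26.7 TPM, each above the highest Control mouse at 19.7 TPM. Its log2 fold change was 1.00 (SE 0.21, 95% CI 0.56 to 1.45, adjusted p = 0.00683), and 0.75 after scaling (adjusted p = 0.015). E2f1 was 40.0, 48.3, 43.0 and 46.6 TPM, again above every Control mouse (0.66, SE 0.14, adjusted p = 0.00825, and 0.40 after scaling with SE 0.06 and adjusted p = 0.0011). Ccnd3 was 104, 105, 118 and 115 TPM, above every Control mouse (0.68, SE 0.13, adjusted p = 0.00334, and 0.42 after scaling with adjusted p = 0.00584). Each of these calls held without each mouse in turn, with adjusted p of 0.00336 to 0.0223 for Ccne1, 0.00352 to 0.0288 for E2f1 and 0.00237 to 0.0137 for Ccnd3. These left-out fits are on TPM as deposited and include the one without Control mouse 1. All 3 calls were lost when Control and RT 24 h alone were fitted (adjusted p = 0.0548 for Ccne1, 0.0973 for E2f1 and 0.0576 for Ccnd3).

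Ccnd2 was 80.1, 69.1, 56.7 and 75.8 TPM at 24 h in MC-38, with 3 of 4 mice above Control (0.59, adjusted p = 0.0397, and 0.33 after scaling with adjusted p = 0.0934). Its call was lost when Control and RT 24 h alone were fitted (adjusted p = 0.164) and without Control mouse 1 (adjusted p = 0.107) or 4 (0.094) or RT 24 h mouse 1 (0.0761), 2 (0.0813) or 4 (0.109). Ccnd1 was called without RT 24 h mouse 3 (0.0475) and Cdkn2b without Control mouse 3 (0.0477), and neither with all mice. In all 4 of 10 members were called, all higher, beside 13.8% of all genes (2073 higher and 86 lower). After scaling 3 were called higher and 1 lower, beside 16% (1232 higher and 1281 lower).

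The member called lower after scaling was Cdkn1b. p27 transcripts were 14.6, 20.2, 18.9 and 17.9 TPM at 24 h and 13.9, 26.4, 25.4 and 19.1 TPM in Control, which overlapped on TPM as deposited (log2 fold change -0.20, adjusted p = 0.516). After scaling they were 15.8, 18.5, 17.9 and 16.3 at 24 h and 21.2, 27.8, 24.8 and 21.5 in Control, without overlap (-0.46, SE 0.12, adjusted p = 0.0191). Ccne2, in contrast to Ccne1, was 22.4, 22.4, 21.4 and 26.6 TPM, within the Control range (-0.06, adjusted p = 0.791, and -0.32 after scaling with adjusted p = 0.0517). After scaling the Ccne2 values were 24.1, 20.6, 20.2 and 24.2, each below the lowest Control mouse at 24.5. The INK4 genes Cdkn2a and Cdkn2b stood at 0.37 (adjusted p = 0.2) and 0.46 (adjusted p = 0.167), and at 0.13 and 0.22 after scaling.

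**Figure D4:**
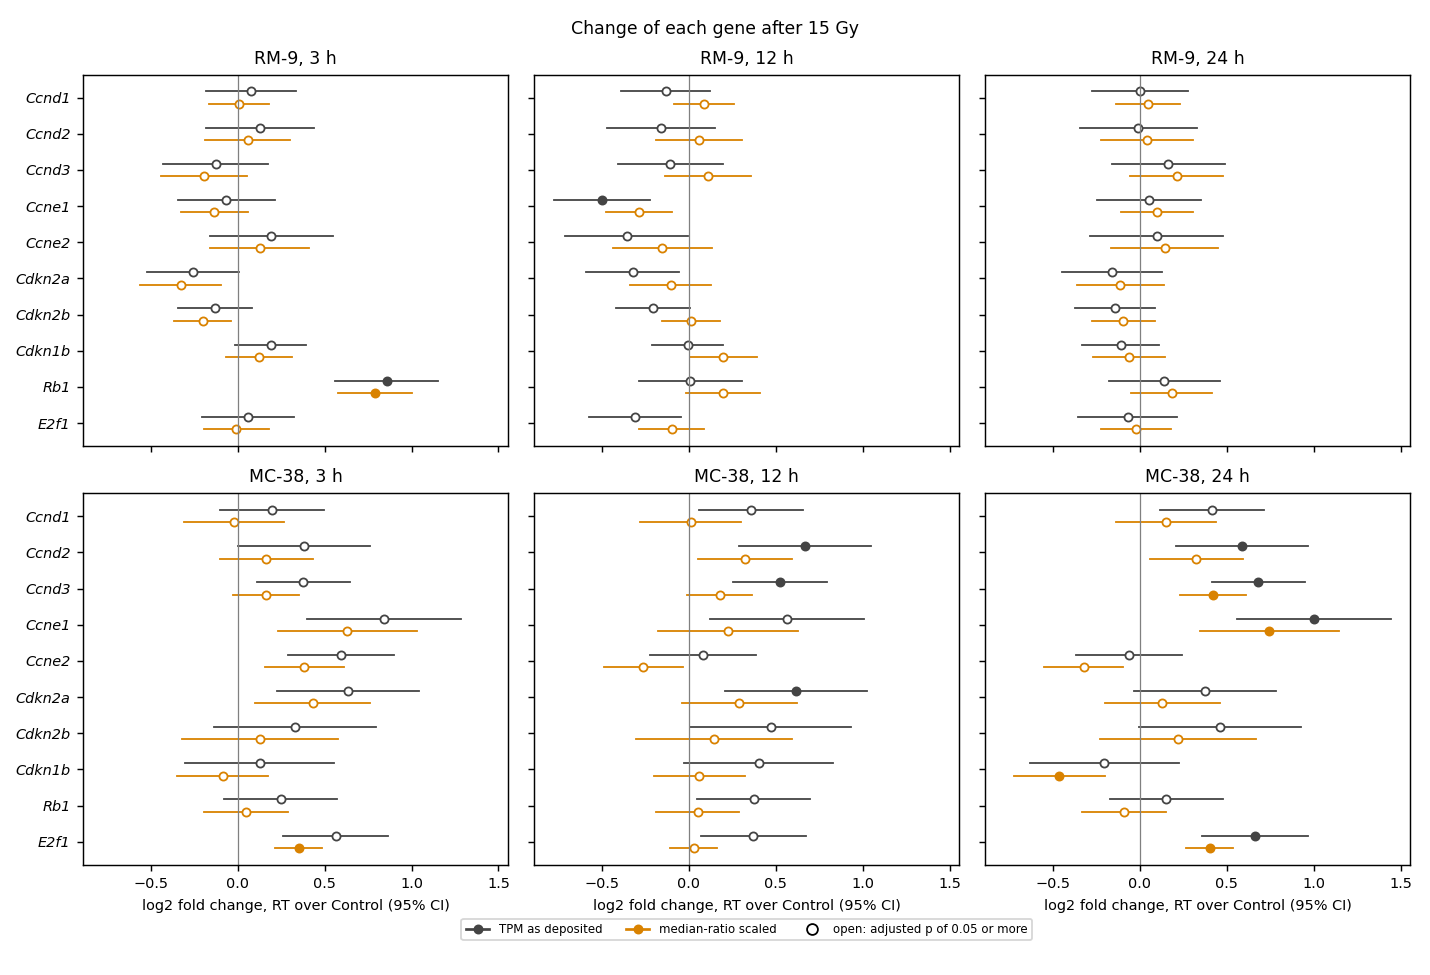
Log2 fold change of each gene after RT against Control of the same model (rows of panels, RM-9 and MC-38; columns, 3, 12 and 24 h), with 95% confidence intervals, on TPM as deposited (grey) and median-ratio scaled (orange); filled points have an adjusted p under 0.05. Rb1 at 3 h is filled on either scale in RM-9, and Ccnd3, Ccne1 and E2f1 at 24 h are filled on either scale in MC-38.

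Cdkn2b spanned 35.9 to 52.0 TPM over the 15 RM-9 mice and 4.48 to 10.4 TPM over the 16 MC-38 mice, and it was called at no time after RT on either scale. Ccnd1, the most abundant member, spanned 163 to 277 TPM in RM-9 and 156 to 302 TPM in MC-38 and was called at no time either. Its MC-38 mice stood at 302, 248, 224.5 and 268 TPM at 24 h, all above Control (0.41, adjusted p = 0.0602, and 0.15 after scaling with adjusted p = 0.503). Cdkn1b spanned 5.52 to 8.20 TPM in RM-9 without a call.

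The makeup of the E-type cyclins differed with time in MC-38 tumors. Ccne1 made up 37.5% to 39.7% of the E-type cyclin TPM in the 4 Control mice, 34.8% to 53.4% at 3 h, 45.3% to 48.0% at 12 h and 50.1% to 64.7% at 24 h. All mice at 12 h and 24 h lay above all Control mice. In RM-9 tumors the share was 68.0% to 73.0% in Control, 64.9% to 70.4% at 3 h, 67.6% to 70.7% at 12 h and 66.7% to 72.6% at 24 h, with overlap at each time. These shares are a description and no test was run on them. Within the D-type cyclins Ccnd1 made up 56.2% to 62.1% at 24 h in MC-38, against 60.0% to 65.5% in Control, and 68.7% to 73.1% against 69.2% to 73.2% in RM-9.

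**Figure D5:**
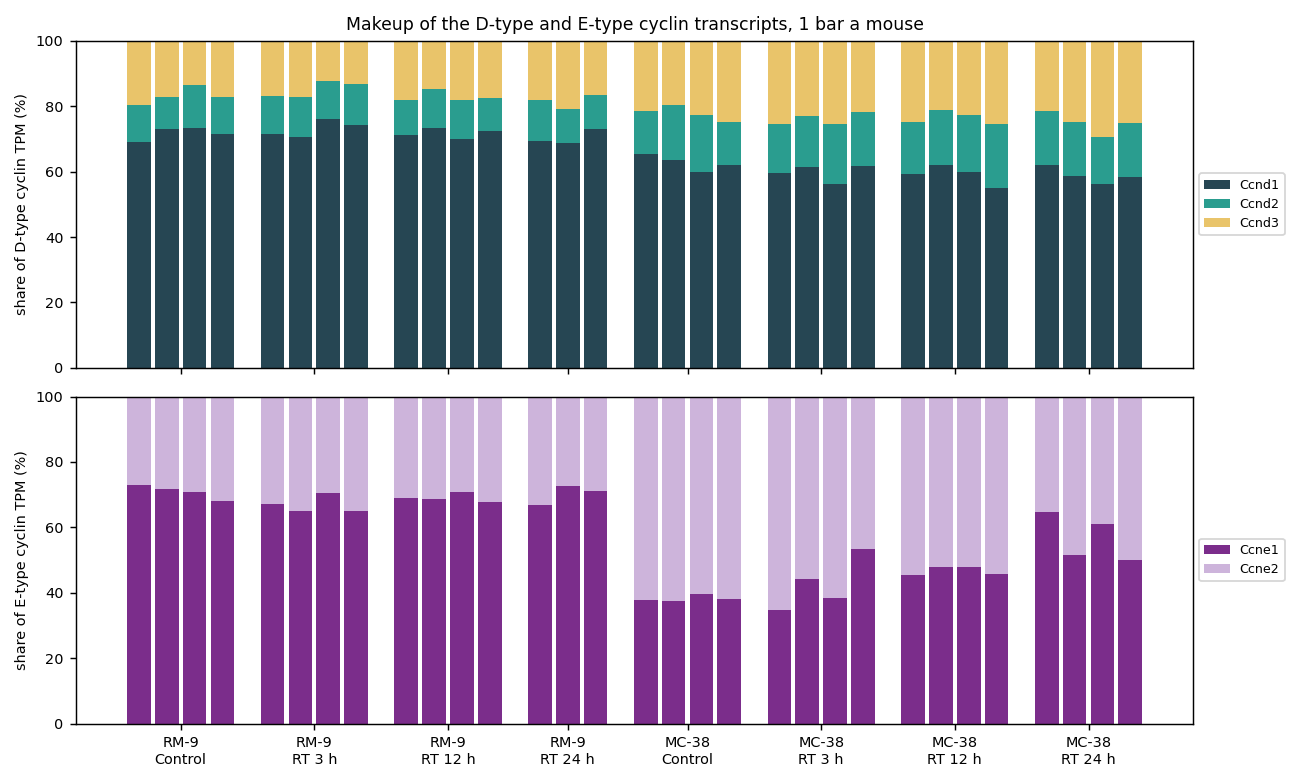
Share of each gene in the summed TPM of the D-type cyclins (top) and of the E-type cyclins (bottom), in percent, 1 bar per mouse, grouped by model and time. The D-type cyclin genes may not be on 1 scale. In MC-38 the Ccne1 share is 37.5% to 39.7% in Control and 50.1% to 64.7% at 24 h, while in RM-9 it stays between 64.9% and 73.0%.

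Of the 9 G1/S regulators in MC-38 at 24 h, 5 were called higher and 0 lower on either scale: Cdc25a, a phosphatase that activates CDK2 (0.53, adjusted p = 0.0181, and 0.27 after scaling with adjusted p = 0.0353), Skp2, which targets p27 for degradation (0.60, adjusted p = 0.0161, and 0.34 after scaling with adjusted p = 0.0264), Fbxw7, which targets cyclin E (0.59, adjusted p = 0.0158, and 0.36 after scaling with adjusted p = 0.0104), Ambra1, which targets D-type cyclins (0.50, adjusted p = 0.0352, and 0.26 after scaling with adjusted p = 0.0229), and Mdm2 (0.74, adjusted p = 0.00685, and 0.48 after scaling with adjusted p = 0.00456). Without Control mouse 1, 4 of the 9 were called higher, beside 8.87% of all genes called, and 2 after scaling, beside 11.1%. Genes that favour and genes that oppose S phase entry were thus called in the same direction. Among the 11 genes of the pocket protein and E2F list 1 was called, with a list median of 0.22, as over all genes. It was E2f3 (0.69, adjusted p = 0.0149, and 0.44 after scaling with adjusted p = 0.00724). Of the 3 G1 kinases Cdk6 was called higher, at 0.62 (adjusted p = 0.0224) and 0.37 after scaling (adjusted p = 0.0161), and without Control mouse 1 no kinase was called higher after scaling. Cdk4 stood at -0.07 (adjusted p = 0.723) and was called lower after scaling, at -0.33 (adjusted p = 0.00741), and Cdk2 was not called (0.36, adjusted p = 0.187, and 0.10 after scaling). Cdkn1a rose from 58.2 to 97.1 TPM (0.73, adjusted p = 0.00143, and 0.47 after scaling with adjusted p = 0.0398). It was also called at 3 h, at 101.8 TPM (0.80, adjusted p = 0.0195), but not after scaling (0.58, adjusted p = 0.0819). At 12 h it was 77.7 TPM (0.42, adjusted p = 0.0216, and 0.07 after scaling with adjusted p = 0.753). Without Control mouse 1, 0 of the 3 other inhibitors tested, Cdkn1a among them, were called at 3 h or 12 h on either scale. The Cdkn1a difference between models at 3 h was -0.16 (adjusted p = 0.783). At 24 h Cdkn2c stood at -0.42 (adjusted p = 0.0899) and was called lower after scaling (-0.68, adjusted p = 0.00523).

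Of the 20 S phase entry genes, 13 were called higher and 0 lower at 24 h in MC-38, with a median of 0.49 against 0.22 over all genes. After scaling 10 were higher and 1 lower, with a median of 0.22 against -0.02. Without Control mouse 1, 9 were higher and 1 lower, and 6 and 1 after scaling. In that fit 8.87% of all genes were called at 24 h, and 11.1% after scaling. Mcm3 (0.64, adjusted p = 0.000734, and 0.38 after scaling with adjusted p = 0.00371) and Mcm6 (0.67, adjusted p = 0.000841, and 0.41 after scaling with adjusted p = 0.00549) had the smallest p. At 12 h 11 of the 20 were higher and 0 lower, with a median of 0.39 against 0.33 over all genes, of which 4469 of 15698 were called higher. After scaling 1 was higher and 1 lower, and without Control mouse 1 the unscaled count was 6, beside 11.7% of all genes called. Of the 14 G2/M genes 4 were higher at 24 h (3 after scaling) and 0 lower, and without Control mouse 1 the counts were 1 and 0. At 12 h 8 were higher and 0 lower, with a median of 0.62 against 0.33 over all genes. After scaling 2 were higher at 12 h and 0 lower, with a median of 0.27 against 0.01. Without Control mouse 1, 2 were higher at 12 h on either scale. At 3 h 0 were called, and 3 were lower after scaling, among them Cdc20 at -1.25 (adjusted p = 0.0673, and -1.46 after scaling with adjusted p = 0.0129). Without Control mouse 1 the scaled count at 3 h was 1 lower. Of the 12 p53 targets, 3, 5 and 4 were higher at 3, 12 and 24 h on TPM as deposited and 0 lower, and the list median at 12 h was 0.26 against 0.33 over all genes. After scaling 3, 3 and 3 were higher and 0, 1 and 2 lower. Without Control mouse 1, 2, 4 and 4 were higher and 0 lower, beside 0.0255%, 11.7% and 8.87% of all genes called. After scaling it was then 2, 3 and 3 higher and 0, 0 and 2 lower, beside 0.0828%, 6.61% and 11.1%. Markers of other cells moved beside these results. The macrophage markers summed to 625.3 to 999.6 TPM in MC-38 Control and 509.7 to 633 TPM at 24 h, with 1 of 6 called lower (3 after scaling). The T cell markers summed to 13.1 to 20.1 TPM in Control and 6.53 to 12.7 TPM at 24 h, with 2 of 5 lower (3 after scaling). The endothelial markers summed to 32.9 to 46.7 TPM in Control and 48.4 to 59.6 TPM at 24 h, with 2 of 4 higher (0 after scaling), and 1 of 2 B cell markers tested was higher on either scale. Without Control mouse 1, 1 macrophage marker was lower on either scale and 1 T cell marker was lower (2 after scaling). The endothelial count was then 2 higher (1 after scaling). Of the fibroblast, neutrophil and skeletal muscle markers none was called at 24 h on either scale in limma. Their part in the results was not tested.

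Whether RT changed a member differently in the models was tested by an interaction contrast over all 31 libraries. At 3 h 0 members were called on either scale, beside 0% of 15358 genes (1519 with an unadjusted p under 0.05, 5 of them members) and 0.0391% after scaling. At 12 h 7 members were called, all with a more positive change in MC-38, beside 45.4% of all genes, and after scaling 0 were called, beside 2.84%. The largest was Ccne1, whose change was -0.50 in RM-9 and 0.57 in MC-38 (difference 1.06, adjusted p = 0.00399, and 0.54 after scaling with adjusted p = 0.149). At 24 h 0 were called, beside 1.81%. An unadjusted p under 0.05 was found for 7 members, beside 3402 of 15358 genes, and for 4 after scaling, beside 2424. The median difference over all genes was 0.25, and 0.02 after scaling. After scaling 1 was called, beside 1.72%: E2f1, whose change differed by 0.73 (adjusted p = 0.0506), and by 0.48 after scaling (adjusted p = 0.0261). The Ccne1 difference at 24 h was 0.95 (adjusted p = 0.056, and 0.69 after scaling with adjusted p = 0.109).

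The genes most like a member over the libraries of a model were found by Pearson correlation of scaled log2 values, over 15 RM-9 or 16 MC-38 libraries that share their cell line and groups, among genes with a mean of at least 5 TPM. Rb1 in RM-9 was most like Dctn4 (r = 0.95) and Cep170b (r = 0.95), of 8705 genes compared. Cdkn2a in RM-9 was most like the ribosomal protein gene copies Rps12l2 (r = 0.95) and Rps12-ps19 (r = 0.94), and in MC-38 most like Hsf1 (r = 0.94) and Ddhd1 (r = 0.93). Ccne1 in MC-38 was most like Fndc4 (r = 0.93), E2f1 in MC-38 most like Mafk (r = 0.86) and Zfp429 (r = 0.85), and Ccnd3 in MC-38 most like Hsh2d (r = 0.92) and Slfn8 (r = 0.88). Ccne2 in RM-9 was most like Dck (r = 0.93), which encodes the nucleoside salvage enzyme deoxycytidine kinase. No member was among the 2 nearest genes of another member in either model.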

How the data were processed

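mRNA of 31 tumors, 1 mouse each, was sequenced by the authors. Per the file headers, the deposited tables give TPM, FPKM and coverage (reads over a base, averaged along the gene), with 46072 genes each. The aligner, the counting program and its strand setting are not given in the sources used here. Submitters' notes name bcl2fastq 2.17 and GRCm39, while 91.1% of 45223 shared genes have a start or end of GENCODE M21 (GRCm38), and all lie on the same chromosome. Depth, from FPKM against coverage at 75 bases a read, was 21.4 to 29.4 M reads. The files hold no read counts, so no counting error is given. Rows of a gene listed more than once were summed.

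Genes with a mean of at least 0.5 TPM, plus the 10 members, were tested with limma 3.58.1 (R 4.3.3, eBayes with trend) on log2(TPM + 0.5), so that changes of low genes are understated. Each model's 4 groups were fitted together, and the models were compared in 1 fit of 8 groups. p-values were adjusted over all genes and measure the spread between mice. The fits were tested on simulated data with independent noise for each gene. The simulation held no shift of whole libraries, so it does not cover such shifts. Alternatives were another scaling, pseudocount, filter, set of samples, a block for mouse number, Dunnett's comparisons (scipy 1.17.1) and each mouse left out.

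The members and gene lists were chosen with earlier results of these data known. Named genes were the members, the G1 kinases, the other inhibitors, pocket proteins and G1/S regulators, the genes of smallest p in other lists, those near Cdkn2a, and those most like a member. Mouse numbers of the labels do not pair the mice. The macrophage list is given only as a sum and a count.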

Additional observations from a re-analysis of the deposited data

Results flagged for a closer look

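In 70 groups of 4 mice, 10 genes in 7 groups, a mouse far from the others was found for 2, where about 1 in 20 is flagged by chance. Ccnd1 was 212 TPM in MC-38 RT 12 h mouse 4, against 262 to 266 TPM in the other 3. Ccnd3 was 100.4 TPM in MC-38 RT 3 h mouse 4, against 84.4 to 86.9 TPM.

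At 12 h the change after RT differed between MC-38 and RM-9 for 7 genes on TPM as deposited, by limma interaction contrasts. The log2 difference, MC-38 change minus RM-9 change, was 0.49 for Ccnd1 (adjusted p = 0.0372), 0.83 for Ccnd2 (0.00983), 0.63 for Ccnd3 (0.0129), 1.06 for Ccne1 (0.00399), 0.94 for Cdkn2a (0.00446), 0.68 for Cdkn2b (0.0289) and 0.68 for E2f1 (0.00842). The median over all genes was 0.50, and after median-ratio scaling, where it was 0.02, none of the 7 was called. The scaled difference flipped to -0.04 for Ccnd1 and was 0.30 for Ccnd2, 0.10 for Ccnd3, 0.54 for Ccne1, 0.42 for Cdkn2a, 0.16 for Cdkn2b and 0.16 for E2f1. Mitochondrial transcripts moved with the groups: they took 52.4% to 57.2% of TPM at 12 h in RM-9, against 47.8% to 50.5% in Control, and 23.0% to 25.9% at 12 h in MC-38, against 25.7% to 40.6% in Control. With these transcripts left out of TPM, 3 of the 7 were called in limma, beside 2316 of 15332 genes. They were Ccne1 (0.80, adjusted p = 0.0218), Cdkn2a (0.68, adjusted p = 0.0241) and E2f1 (0.41, adjusted p = 0.042), where the median over all genes was 0.26. The part of mitochondrial transcripts in the result was not tested further.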

How the results depend on the processing

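Counts of called members that moved by more than 1.5 times are given here, from the count on TPM as deposited. In brackets stand all genes called of all tested, for TPM as deposited, scaling and TPM without mitochondrial genes. For the other settings they are not given here. RM-9 3 h, 1 (32 of 14013): 0 without a filter, with the replicate block or with only the groups compared. RM-9 12 h, 1 (1173 of 14013): 0 with median-ratio scaling (19 of 14013), without mitochondrial genes (77 of 13990), without a filter or with only the groups compared. MC-38 3 h, 0 (10 of 15698): 1 with scaling (105 of 15698), 2 without mitochondrial genes (158 of 15671), 5 with Dunnett's comparisons. MC-38 12 h, 3 (4875 of 15698): 0 with scaling (2539 of 15698), 5 with a mean of at least 5 TPM, 0 with only the groups compared. MC-38 24 h, 4 (2159 of 15698): 0 with only the groups compared, a fit with fewer mice. Difference between models at 12 h, 7 (6975 of 15358): 0 with scaling (436 of 15358), 3 without mitochondrial genes (2316 of 15332). Difference at 24 h, 0 (278 of 15358): 1 with scaling (264 of 15358), without mitochondrial genes (335 of 15332) or with the replicate block, 2 with a pseudocount of 1 or a mean of at least 5 TPM. With a mouse left out the counts ran from 0 to 1 (RM-9 3 h and 12 h), 0 to 4 (MC-38 3 h), 2 to 7 (MC-38 12 h) and 0 to 3 (difference at 24 h).

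Log2 values changed sign as follows. With median-ratio scaling, RM-9: E2f1 -0.0079 at 3 h, Ccnd1 0.087, Ccnd2 0.059, Ccnd3 0.11, Cdkn2b 0.011 and Cdkn1b 0.20 at 12 h, Ccnd2 0.040 at 24 h. MC-38: Ccnd1 -0.021 and Cdkn1b -0.085 at 3 h, Ccne2 -0.26 at 12 h, Rb1 -0.092 at 24 h. Untreated models: Ccnd2 -0.28, Ccnd3 -0.28. Difference between models: Ccnd1 -0.0087 at 3 h, Ccnd1 -0.043, Ccne2 -0.073, Cdkn1b -0.11 and Rb1 -0.13 at 12 h, Rb1 -0.23 at 24 h. Without mitochondrial genes: Ccnd1 0.014, Ccnd3 0.039 and Cdkn1b 0.14 at 12 h and Ccnd2 0.026 at 24 h in RM-9, Ccne2 -0.055 at 12 h in MC-38, Ccnd2 -0.039 and Ccnd3 -0.039 between untreated models, and Rb1 -0.13 in the difference at 24 h. With the replicate block: Ccnd2 0.012 at 24 h in RM-9 and Rb1 -0.015 in the difference at 24 h. With a mouse left out: RM-9 12 h, Cdkn1b -0.039 to 0.034 and Rb1 -0.10 to 0.094. RM-9 24 h, Ccnd1 -0.082 to 0.11, Ccnd2 -0.095 to 0.076, Ccne1 -0.070 to 0.12 and E2f1 -0.21 to 0.10. MC-38, Cdkn1b -0.056 to 0.25 at 3 h and Ccne2 -0.057 to 0.18 at 12 h and -0.20 to 0.036 at 24 h. Difference between models, Cdkn1b -0.25 to 0.057 at 3 h and -0.28 to 0.023 at 24 h, and Rb1 -0.11 to 0.11 at 24 h. Of these, Ccnd2 and Ccnd3 between untreated models and Ccnd1 in the difference at 12 h were called on TPM as deposited. The causes were not tested.

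Mouse numbers did not pair the mice: the deviations of same-numbered mice correlated from -0.48 to 0.55 over the 6 comparisons with Control, and the smallest r was below 0 in each. In each comparison 0 to 2 mice correlated best with the mouse of their own number. No counting error can be given, since the tables hold no counts.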
